A study of Mus musculus with 6 samples.

Results

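The inward rectifier and KATP channel genes set the resting and late repolarising potassium currents of the heart, and 9 of them were followed here: Kcnj2, Kcnj12, Kcnj3, Kcnj5, Kcnj8, Kcnj11, Abcc8, Abcc9 and the two-pore channel gene Kcnk3. They were taken by name, and each gene was read from the probe whose annotation gives that symbol and no other; of several such probes the one with the highest mean over the 6 arrays was used. Of the 9 genes, 8 had such a probe, out of 22180 genes measured in this way. The probes annotated to Kcnk3 also carry the symbol Gm9899, so Kcnk3 was not analysed here.

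Expression was measured in total RNA from mouse hearts on 6 Affymetrix arrays. The 3 hearts called transgenic here have the genotype Nkx2.5-Cre; R26R-miR302-367, in which Cre switches on the miR-302 and miR-367 microRNA cluster from the Rosa26 locus. The 3 control hearts have the genotype Nkx2.5-Cre, so both groups carry the Cre driver, and both are on a mixed C57BL/6 x 129S6 background. Nkx2.5-Cre acts in cardiac progenitors and their descendants, so cells of other origin in the same heart need not carry the active cluster. The source name and harvest protocol give an age of 14 days after birth for both groups, whereas the age field reads E14. Whether each sample is a separate animal is not stated in the labels, so a p-value reflects only how much these samples vary, which may be technical, and 6 arrays limit the precision.

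Inward rectifier (Kir) channels pass potassium more easily into the cell than out of it and need the membrane lipid PIP2 to open. Kir2 channels hold the resting potential of working heart muscle, Kir3 channels open when vagal acetylcholine releases G protein beta-gamma subunits, and KATP channels, built of Kir6 pores and sulfonylurea receptor (SUR) subunits, open when ATP falls. In the mouse heart, Kir6.2 is the pore of the cardiomyocyte KATP channel, while Kir6.1 with SUR2 is known from vascular smooth muscle and pericytes, the contractile cells that wrap capillaries.

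Overexpressed microRNAs of the cluster are shown because they are the agent that separates the groups. The sequence of miR-302a is left out, as no mature 3p entry for it was found. The mature 3p strands in RefSeq (GRCm38.p6, chromosome 3, plus strand) are written 5′ to 3′ with bases 2 to 8, the seed, in capitals.
miR-302b-3p: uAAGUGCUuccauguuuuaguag
miR-302c-3p: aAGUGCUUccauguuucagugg
miR-302d-3p: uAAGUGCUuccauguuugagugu
miR-367-3p: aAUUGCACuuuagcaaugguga
The RefSeq strands of miR-302b and miR-302d share the seed AAGUGCU. That of miR-302c holds the same 7 bases starting at base 1, which moves its own seed along by 1 base, and miR-367 has a different seed. In the transgenic hearts the probes of the 5 cluster microRNA genes read higher than in control hearts, by 2.99 (Mir302b) to 6.61 (Mir302c) on the log2 scale. Target sites in the messages of the channel genes were not analysed here.

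Of the 8 measured channel genes, 1 passed the test and 7 did not. Kcnj8, which encodes the KATP pore Kir6.1, fell in the transgenic hearts, and 0 of the 8 rose. Over all genes, 11.1% passed at the same threshold of 0.05 for the adjusted p (5.35% higher in transgenic hearts, 5.76% lower), so 1 of 8 is a share near the background. For 4 of the 8 genes the groups were fully apart, with no overlap, 2 higher (Kcnj5 and Abcc8) and 2 lower (Kcnj8 and Kcnj11), against 30.9% of all genes (14.2% higher, 16.7% lower). The median log2 fold change of the 8 was -0.01, beside -0.03 over all genes tested. At an unadjusted p under 0.05, 2 of the 8 were counted (Kcnj8 and Kcnj5), against 25.4% of all genes.

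The mean signals of the 8 probes lay between the 55.4 percentile (Kcnj12) and the 98.5 percentile (Abcc9) of all genes. These percentiles describe probe signal and do not rank the transcripts against each other. The cardiomyocyte markers had log2 values of 10.20 or higher on every array, and 0 of the 7 passed the test (median log2 fold change -0.03). Myl2, with a log2 fold change of 0.24, passed with an intensity trend and robust variances (adjusted p = 0.0165). The markers of lung tissue lay between summed log2 signals of 6.81 and 7.03 in transgenic and 6.87 and 7.22 in control hearts, and 0 of the 4 passed the test. The 4 brown fat markers had 8.21 to 8.40 in transgenic and 8.46 to 8.67 in control hearts, with 0 called. Cidea, the brightest of them, weighs most in that sum of unlogged values and had a log2 fold change of -0.35 (limma adjusted p = 0.109). Cidea passed with array weights (0.0418), after a second quantile normalization (0.0493) and without control replicate 3 (0.0449).

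**Figure D1:**
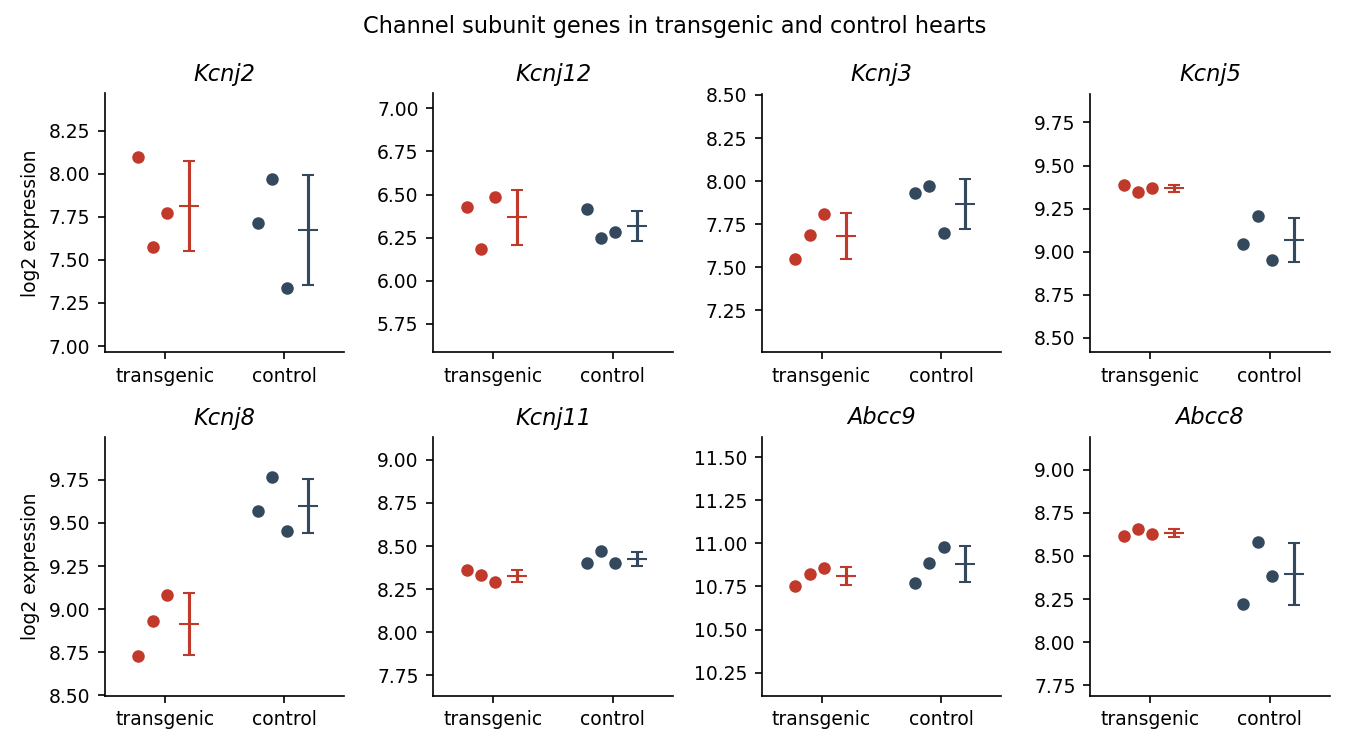
Log2 expression (vertical axis, the same span in each panel) of the 8 channel genes in 3 transgenic and 3 control hearts. Points are single arrays and bars are the mean with its SD; Kcnj8 has all transgenic hearts at 9.08 or less and all control hearts at 9.46 or more, while the groups of Kcnj2, Kcnj12, Kcnj3 and Abcc9 overlap.

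Kcnj8 had log2 values of 8.73, 8.93 and 9.08 in the transgenic hearts, against 9.57, 9.77 and 9.46 in the control hearts. All transgenic values lay below all control values, with a gap between the groups that is larger than the spread within the control group. The means were 8.91 ± 0.18 in transgenic and 9.60 ± 0.16 in control hearts (SD, n = 3 each), a difference of -0.68 on the log2 scale (SE 0.12, 95% interval -0.96 to -0.41, limma adjusted p = 0.008881). This is a 1.61-fold lower value in the transgenic hearts. Leaving out any single array gave log2 fold changes from -0.77 to -0.59, with adjusted p-values from 0.0107 to 0.0383.

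Kcnj11 encodes Kir6.2, the KATP pore of cardiomyocytes. It had 8.36, 8.33 and 8.29 in the transgenic hearts and 8.40, 8.47 and 8.40 in the control hearts. The groups did not overlap, yet the distance was small, with means of 8.33 ± 0.035 in transgenic and 8.43 ± 0.041 in control hearts (SD, n = 3 each). Its log2 fold change was -0.10 (95% interval -0.28 to 0.09, limma adjusted p = 0.5148). Kcnj11 had one of the smallest residual spreads of the array, an SD of 0.0384 on the log2 scale, which is at the 2.19 percentile of all genes. The moderated test draws so small a spread towards that of the other genes.

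Abcc9 encodes SUR2, the regulatory subunit of ventricular and vascular KATP channels. It had 10.75, 10.82 and 10.86 in the transgenic hearts and 10.77, 10.89 and 10.98 in the control hearts, and the groups overlapped. Its log2 fold change was -0.07 (95% interval -0.27 to 0.13, limma adjusted p = 0.6929).

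Abcc8 encodes SUR1, the subunit of the atrial KATP channel in mice and of the channel in pancreatic beta cells. It had 8.62, 8.66 and 8.63 in the transgenic hearts, against 8.22, 8.58 and 8.38 in the control hearts. Every transgenic value was above every control value, while the control hearts differed among themselves by more than the transgenic hearts did. The means were 8.63 ± 0.021 in transgenic and 8.40 ± 0.18 in control hearts (SD, n = 3 each), a difference of 0.24 on the log2 scale (95% interval -0.00086 to 0.48) that did not pass the test (limma adjusted p = 0.1986).

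The KATP genes lie in 2 neighbouring pairs in the RefSeq gene order, Kcnj8 next to Abcc9 on chromosome 6 and Kcnj11 next to Abcc8 on chromosome 7. The outer neighbours were looked up for their position, after their values were computed. On chromosome 6, Ldhb, the heart-type lactate dehydrogenase subunit, had a log2 fold change of 0.09 (limma adjusted p = 0.5989) and Cmas, a sialic acid enzyme, had -0.11 (0.5298), so Kcnj8 was the called gene among 4 in a row. On chromosome 7, Nomo1 fell by 0.47 (limma adjusted p = 0.02311) and Ush1c rose by 0.78 (0.02141) on either side of Kcnj11 and Abcc8. The Nomo1 call was lost without transgenic replicate 1 (0.091) or 2 (0.0841) or control replicate 2 (0.0596), and that of Ush1c without transgenic replicate 1 (0.0838) or 3 (0.0646).

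Stretches of the annotated promoters of Kcnj8 and Abcc9 are shown because these neighbours encode partner subunits and Kcnj8 alone of the pair passed the test. Both are on the minus strand of GRCm38.p6 in RefSeq and are written 5′ to 3′ along the gene. The Kcnj8 stretch is chr6:142571615-142571794, the 180 bases before the annotated start, with a GATA match and an E-box match in capitals. The Abcc9 stretch is chr6:142702265-142702414, from 140 bases before to 10 after the start, with a match to the MEF2 consensus in capitals and an E-box match left in lower case.
Kcnj8: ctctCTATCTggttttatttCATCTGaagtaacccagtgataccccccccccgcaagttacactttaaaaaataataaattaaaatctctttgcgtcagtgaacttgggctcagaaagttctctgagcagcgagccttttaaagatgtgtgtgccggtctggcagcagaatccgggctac
Abcc9: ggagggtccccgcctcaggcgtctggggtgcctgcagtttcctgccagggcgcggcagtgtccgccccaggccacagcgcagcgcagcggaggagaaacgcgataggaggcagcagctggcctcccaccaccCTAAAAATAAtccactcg
Of the 8 channel genes, 6 had a promoter entry, from 250 bases before to 50 after the start. Both strands were searched for the MEF2 consensus, the SRF CArG box, the GATA motif (AGATAA, the form AGATAG, the form TGATAA and the form TGATAG), the E-box CANNTG and the TATA box TATAAA, and no matches of different motifs overlapped in these 6 promoters. Among the 6, the MEF2 consensus occurred in the Abcc9 window alone, starting 8 bases before the annotated start, and 3.19% of all 32851 promoter windows held it. GATA matches were in the windows of Kcnj8, Kcnj2 and Kcnj5 (29.8% of all windows), E-boxes in all 6 (72.3% of all), and the CArG box (1.63%) and TATA box (13.6%) in 0 of the 6. A match is a description of the letters and does not show that a factor binds there.

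Most pericyte markers moved in the same direction as Kcnj8. Kcnj8 and Abcc9 themselves are known pericyte genes and were left out of that list. Of 10 other pericyte markers, 6 fell and 0 rose, with a median log2 fold change of -0.45 beside -0.03 over all genes. At the same threshold 5.76% of all genes fell and 5.35% rose, which is the background for this and each later list. Vtn, the matrix protein vitronectin, fell by 1.18, Steap4, a metalloreductase, fell by 0.76, and Rgs5, a regulator of G protein signalling, fell by 0.65 on the log2 scale (limma adjusted p = 0.002883, 0.004443 and 0.005811). With the mean of its probes in place of the brightest, Rgs5 had an adjusted p = 0.071. Pdgfrb, Higd1b and Ndufa4l2 were called nearer the threshold (limma adjusted p = 0.0307, 0.0407 and 0.0428) and were not followed over the alternatives. Not all markers moved this way: Cspg4, the proteoglycan NG2, had 0.33 (0.0606) and Mcam, the adhesion molecule CD146, had 0.17, both uncalled with all transgenic values above all control values. Both were picked after their values were seen, and Cspg4 passed in 4 of its alternatives (adjusted p from 0.0263 to 0.0432). Abcc9, given above as a pericyte gene too, had -0.07 and was not called. The summed signal of the list was 12.19 to 12.45 on the log2 scale in transgenic and 12.76 to 12.87 in control hearts, which do not overlap. Rgs5, the brightest of the list, weighs most in this sum of unlogged values. The lowest log2 value of any of these markers on any array was 5.18.

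Of 8 smooth muscle markers, 1 rose and 1 fell (median log2 fold change -0.16). Cnn1, a calponin, rose by 1.41 and Acta2, smooth muscle alpha-actin, fell by 0.52. The Acta2 call was lost without transgenic replicate 1 (adjusted p = 0.0883) or transgenic replicate 3 (0.0701). Des, the intermediate filament protein desmin, had a value of -0.27 (limma adjusted p = 0.0708) and passed without the third of genes lowest in signal (0.0409) and with an intensity trend and robust variances (0.00559). The Des and Acta2 probes, at the 99.4 and 99.8 percentile of all genes, read as high as cardiomyocyte markers such as Ryr2 (99.1). Whether smooth muscle or other cells gave these signals was not tested. The summed signal was 13.12 to 13.22 in transgenic and 13.44 to 13.66 in control hearts. Acta2 and Des, the brightest of the list, weigh most in this sum of unlogged values. Of 10 endothelial markers, 5 fell and 0 rose (median -0.35), with a summed signal of 13.36 to 13.45 in transgenic and 13.56 to 13.66 in control hearts. Among them Ly6c1 fell by 1.23, Pecam1, the adhesion molecule CD31, fell by 0.50, and Tie1, a receptor kinase, fell by 0.49. The Tie1 call was lost without transgenic replicate 1 (adjusted p = 0.0632), transgenic replicate 2 (0.0623) or control replicate 1 (0.059). Emcn and Cdh5 were also called, Cdh5 close to the threshold (limma adjusted p = 0.0174 and 0.0483), and were not followed over the alternatives. The part of these cell types in the Kcnj8 value was not tested, and in whole hearts fewer cells of a type and less RNA per cell cannot be told apart.

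Markers of some other cell types moved as well. Of 8 macrophage markers, 6 fell and 0 rose (median log2 fold change -0.67, summed signal 9.83 to 10.07 in transgenic and 10.51 to 10.73 in control hearts). Csf1r, C1qb and Mrc1 fell by 0.94, 0.96 and 0.82 on the log2 scale. C1qa, another of the 6, lost its call without transgenic replicate 1 (adjusted p = 0.0591), transgenic replicate 2 (0.0521) or control replicate 1 (0.0571). Of 8 fibroblast markers, 0 passed the test (median -0.02, summed signal 13.10 to 13.23 in transgenic and 13.18 to 13.33 in control hearts), with the smallest p-values in Col1a1 (0.30), Dcn (-0.21) and Gsn (-0.23). Col1a1 passed in 3 of its alternatives (adjusted p from 0.0142 to 0.0385) and Dcn in 1 (0.00979). Of 6 measured markers of neurons and glia, 2 fell, Sox10 by 0.55 and S100b by 0.46 (median -0.04, summed signal 7.63 to 7.69 in transgenic and 7.73 to 7.91 in control hearts). Both had low probe signals, at the 34.0 (Sox10) and 22.4 percentile (S100b) of all genes. The lung markers ran from the 14.0 (Scgb1a1) to the 45.0 percentile (Sftpb), so a change in glia cannot be read from these 2 probes. The S100b call was lost without transgenic replicate 1 (adjusted p = 0.0683), 2 (0.0766) or 3 (0.065) or control replicate 1 (0.0675).

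**Figure D2:**
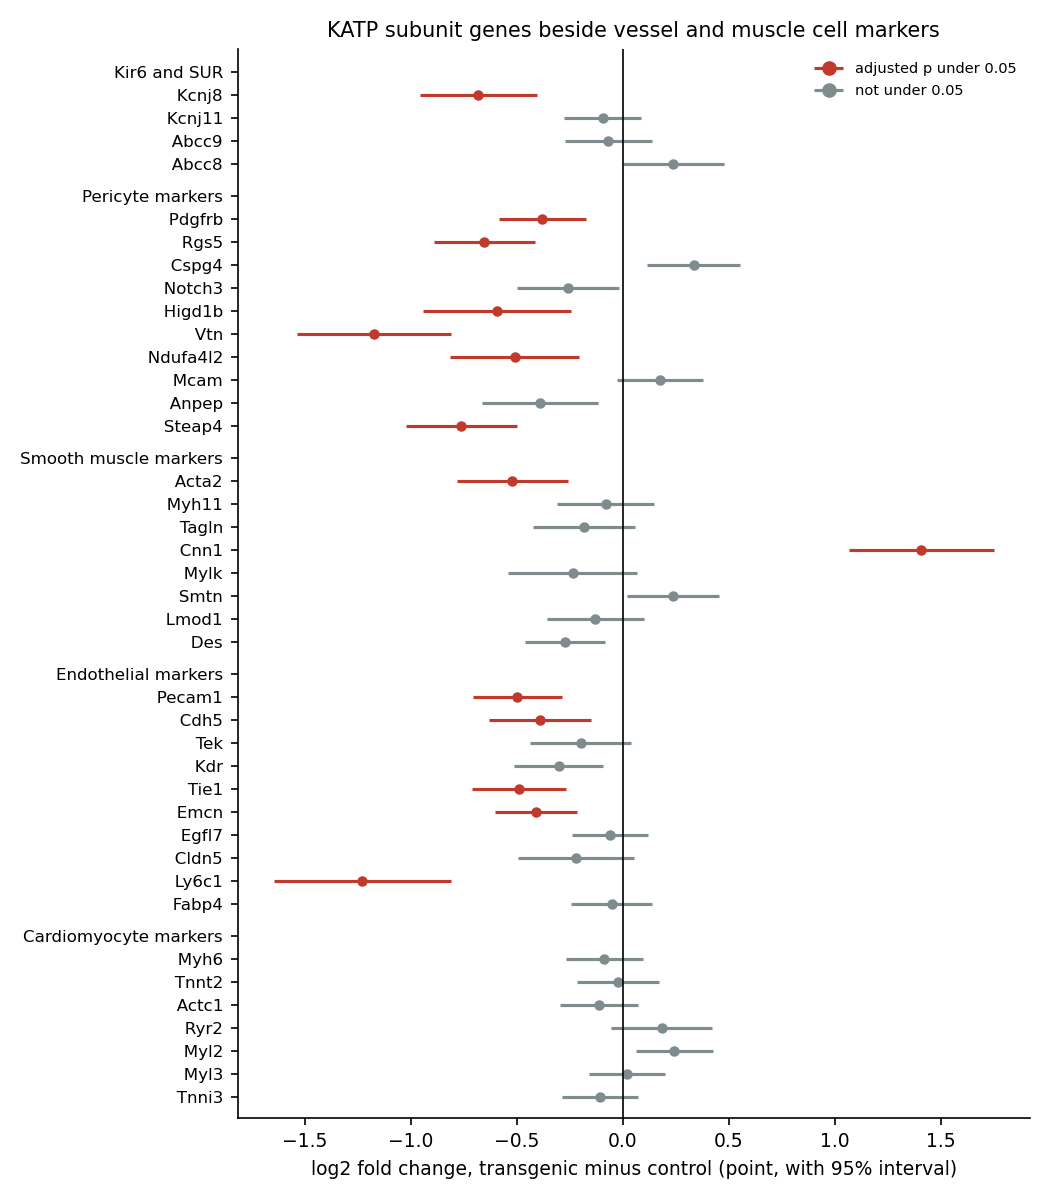
Log2 fold changes, transgenic minus control, of the KATP subunit genes and of pericyte, smooth muscle, endothelial and cardiomyocyte markers (horizontal axis), with 95% intervals from limma; red marks an adjusted p under 0.05. Kcnj8 at -0.68 lies within the range of the pericyte markers, from -1.18 to 0.33, and Abcc9 at -0.07 has an interval that includes 0.

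The 3 genes with the profile most like that of Kcnj8, by the Euclidean distance between mean-centred log2 values over the 6 arrays, were C1qa (distance 0.11), Lmbr1 (0.146) and Aqp7 (0.151). C1qa encodes a complement subunit made by macrophages, and Aqp7 a water and glycerol channel known from fat and capillaries. Their log2 fold changes were -0.67, -0.63 and -0.69. Likeness over 6 arrays rests mostly on the shared difference between the groups and says nothing of shared control.

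Kcnj3 and Kcnj5 encode Kir3.1 and Kir3.4 (GIRK1 and GIRK4), which join into the acetylcholine-gated channel of the atria and the sinus node. Kcnj5 had 9.39, 9.35 and 9.37 in the transgenic hearts, against 9.05, 9.21 and 8.95 in the control hearts. The transgenic hearts were nearly alike and all above the control hearts, whose own spread was wider. The means were 9.37 ± 0.019 in transgenic and 9.07 ± 0.13 in control hearts (SD, n = 3 each), a difference of 0.30 on the log2 scale (SE 0.0929, 95% interval 0.09 to 0.51). This did not pass the test over all genes (limma adjusted p = 0.07482). It did pass when the third of the genes lowest in signal was left out (0.0457) and with an intensity trend and robust variances (0.0249), within a range of 0.0249 to 0.191 over the 13 alternatives.

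Kcnj3 had 7.55, 7.69 and 7.81 in the transgenic hearts and 7.93, 7.97 and 7.70 in the control hearts, and the groups overlapped. Its log2 fold change was -0.19 (95% interval -0.43 to 0.06, limma adjusted p = 0.34). A dimmer Kcnj3 probe went the other way, with 5.19, 5.10 and 5.28 in the transgenic hearts and 4.70, 4.99 and 4.85 in the control hearts. On that probe all transgenic values were above all control values, and its log2 fold change was 0.35 (95% interval 0.09 to 0.60, limma adjusted p = 0.1298 where all probes were fitted). The probes thus disagree on the direction of Kcnj3, and neither passed the test. All values of the dimmer probe lay below the array medians (5.45 to 5.54). Lung markers such as Sftpc read about as low (means of 4.81 in transgenic and 4.75 in control hearts). A change in Kcnj3 cannot be read from so low a signal.

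Most atrial markers rose in the transgenic hearts, and Kir3 channels are best known from the atria. Of 8 atrial markers, 5 rose and 0 fell (median log2 fold change 1.14), with a summed signal of 12.48 to 12.83 in transgenic and 11.34 to 11.88 in control hearts. Dkk3 rose by 1.49, Myl4, the atrial light chain, by 1.09 and Nppa, atrial natriuretic peptide, by 1.20 on the log2 scale. Sln and Myl7 were called too (limma adjusted p = 0.0111 and 0.0415) and were not followed over the alternatives. Bmp10, Nr2f2 and Tbx5 had values below 0 and were not called. Of 6 ventricular markers, 2 rose, Irx4 by 0.73 and Hey2 by 1.77 (median 0.26), and the summed signals were 13.75 to 13.81 in transgenic and 13.65 to 13.74 in control hearts. Of 6 measured conduction system markers, 1 rose, Cacna1g, a T-type calcium channel, by 0.68 (median -0.17, summed signal 9.12 to 9.15 in transgenic and 8.98 to 9.17 in control hearts). The sinus and conduction markers Tbx3 and Cntn2 had values of -0.36 (adjusted p = 0.0527) and -0.34 (0.0653). Tbx3 passed in 5 of its alternatives (adjusted p from 0.0172 to 0.0493) and Cntn2 in 3 (0.0303 to 0.0416). The part of these cells in the Kcnj5 value was not tested, and more cells of a type and more RNA per cell cannot be told apart.

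Genes of the vagal pathway that opens Kir3 channels went both ways. Of 14 measured, 2 rose and 5 fell, with a median log2 fold change of -0.06. Chrm2, the M2 muscarinic receptor through which acetylcholine slows the heart, had 9.23, 9.41 and 9.25 in the transgenic hearts and 9.67, 9.69 and 9.65 in the control hearts. All transgenic values lay below the control values, a difference of -0.37 on the log2 scale (SE 0.0861, limma adjusted p = 0.0278). That call was lost without transgenic replicate 1 (0.105), transgenic replicate 3 (0.0904), control replicate 1 (0.0822) or control replicate 2 (0.0682).

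Gnao1, the alpha subunit of the G protein Go, had 8.80, 8.82 and 8.68 in the transgenic hearts and 7.71, 8.03 and 7.72 in the control hearts. It rose by 0.94 on the log2 scale (limma adjusted p = 0.001431), a distance well beyond the spread in either group. Gng2, a gamma subunit, rose by 0.44 (0.01755), a call that was lost without transgenic replicate 2 (0.0737) or 3 (0.0658). Gnb5, the beta subunit that pairs with RGS proteins of the Rgs6 family, fell by 0.39 (0.02443). The Gnb5 call was lost without transgenic replicate 1 (0.0759), 2 (0.0918) or 3 (0.0716) or control replicate 2 (0.067).

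RGS proteins speed the switching off of G proteins, and Rgs4 is known to act on the muscarinic response of Kir3 channels in the sinus node. Rgs4 had 6.04, 5.87 and 6.17 in the transgenic hearts and 7.55, 7.20 and 6.99 in the control hearts. It fell by 1.22 on the log2 scale (SE 0.15, limma adjusted p = 0.00164), and the groups did not overlap. Rgs2, which acts mainly on Gq, fell by 1.33 (0.001495), or by 0.74 with the mean of its 2 probes. Rgs5, given above with the pericyte markers, fell too. Rgs6, the partner of Gnb5 in heart, was not called, with means of 7.87 in transgenic and 7.78 in control hearts (limma adjusted p = 0.6284).

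Kcnj2 and Kcnj12 encode Kir2.1 and Kir2.2, the pores of the current that holds the resting potential of ventricular muscle. Kcnj2 had 8.09, 7.57 and 7.77 in the transgenic hearts and 7.71, 7.97 and 7.34 in the control hearts. The groups overlapped widely, and the residual SD of 0.292 on the log2 scale was at the 95.8 percentile of all genes. Its log2 fold change was 0.14 (95% interval -0.26 to 0.55, limma adjusted p = 0.6882).

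Kcnj12 had 6.43, 6.18 and 6.49 in the transgenic hearts and 6.42, 6.25 and 6.28 in the control hearts. The groups overlapped, with a log2 fold change of 0.05 (95% interval -0.19 to 0.29, limma adjusted p = 0.8222). Of the 8 channel probes, that of Kcnj12 had the lowest mean signal.

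Genes that supply PIP2 or anchor Kir channels were mostly not called. Of 12 measured, 2 rose and 0 fell, with a median log2 fold change of 0.07. Pip5k1b, a kinase that makes PIP2, averaged 8.92 ± 0.082 in transgenic and 8.41 ± 0.093 in control hearts (SD, n = 3 each). It rose by 0.51 on the log2 scale (limma adjusted p = 0.009096) with no overlap between the groups. Dlg1, the scaffold protein SAP97 that binds Kir2 channels, rose by 0.32 (0.04482). The Dlg1 call was lost without any 1 of the 6 arrays, transgenic or control (0.0572 to 0.144), with centred arrays (0.0907) and after a second quantile normalization (0.0523).

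**Figure D3:**
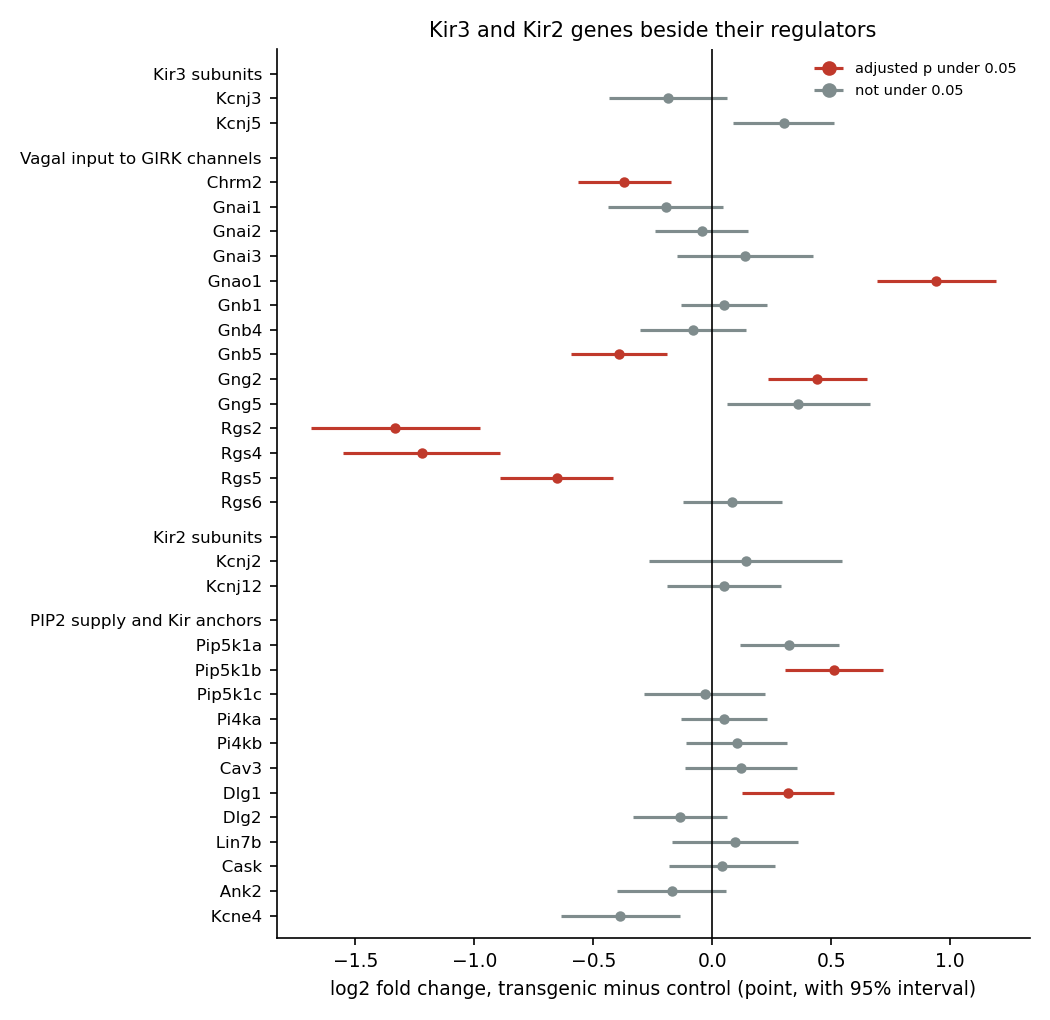
Log2 fold changes, transgenic minus control, of the Kir3 and Kir2 genes and of their regulators (horizontal axis), with 95% intervals from limma; red marks an adjusted p under 0.05. The Kir3 and Kir2 genes lie between -0.19 and 0.30 with none called, while Gnao1 at 0.94 and Rgs2 at -1.33 mark the ends of the vagal list.

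KATP channels read the ATP made and buffered near the membrane, and enzymes that buffer or sense it were taken as a further list. Of 10 measured, 3 fell and 0 rose, with a median log2 fold change of -0.07. Ckmt2, the mitochondrial creatine kinase of muscle, fell by 2.15 on the log2 scale (limma adjusted p = 8.523e-05), while Ckm, its cytosolic counterpart, had -0.02 (0.9255). Ak1, the adenylate kinase that converts ADP to ATP and AMP, had 6.70, 6.73 and 6.74 in the transgenic hearts and 7.18, 7.24 and 7.21 in the control hearts. It fell by 0.49 (0.005707), with each group nearly uniform. Stk11, the kinase LKB1 that activates AMP-activated kinase, fell by 0.68 (0.006635).

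Whether partner subunits changed unequally was asked from the log2 difference between their probes within each array, compared between the groups by an exact two-sided permutation test over the 20 splits of the arrays. With 3 arrays against 3, the smallest p that this test can give is 0.10. Kir6.1 against Kir6.2 (Kcnj8 minus Kcnj11) was lower in the transgenic hearts by 0.59 on the log2 scale, with differences of 0.37, 0.60 and 0.79 in transgenic and 1.17, 1.30 and 1.05 in control hearts. The groups did not overlap (exact permutation p = 0.1, 0.133 adjusted over the 4 planned pairs). The pair contains Kcnj8, which was called on its own, and the difference does not show that Kcnj11 stayed as it was.

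SUR2 against SUR1 (Abcc9 minus Abcc8) was lower by 0.31, with 2.14, 2.17 and 2.23 in transgenic and 2.55, 2.31 and 2.60 in control hearts (exact permutation p = 0.1, 0.133 adjusted). Kir3.1 against Kir3.4 (Kcnj3 minus Kcnj5) was lower by 0.49, with -1.84, -1.66 and -1.56 in transgenic and -1.12, -1.24 and -1.25 in control hearts (exact permutation p = 0.1, 0.133 adjusted). With the mean of both Kcnj3 probes that difference was -0.22, and it was not computed with the dimmer probe alone. Kir2.1 against Kir2.2 (Kcnj2 minus Kcnj12) overlapped between the groups, with a difference of 0.09 (exact permutation p = 0.8).

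Both pairs of neighbouring genes were added after the values were seen. Kcnj8 minus Abcc9 was lower by 0.61 in the transgenic hearts and Kcnj11 minus Abcc8 by 0.33, each without overlap (exact permutation p = 0.1, 0.12 adjusted over all 6 pairs). None of the 6 pairs could pass 0.05 in this design. Several of them share a gene or hold a gene whose groups did not overlap on its own, and no share over other pairs of genes was computed, so the lack of overlap is a description.

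**Figure D4:**
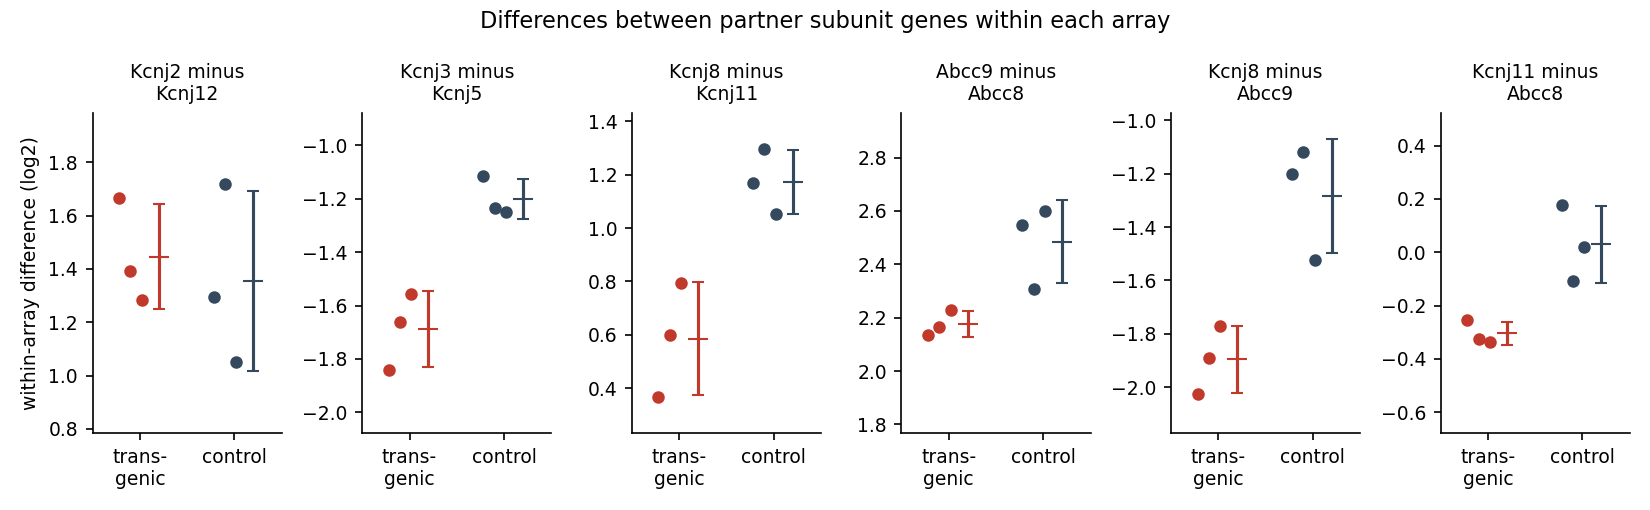
Log2 difference between partner subunit genes within each array (vertical axis, the same span in each panel) in 3 transgenic and 3 control hearts, with the mean and its SD. The groups separate in every panel but Kcnj2 minus Kcnj12, and the largest shift is that of Kcnj8 minus Abcc9 at -0.61.

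The other members of both channel families gave no call. Of 8 other Kir genes measured, 0 passed the test at an adjusted p of 0.05 and 1 had an unadjusted p under 0.05 in the limma fit, with log2 fold changes from -0.23 to 0.01 (median -0.05). Kcnj6, which encodes the mainly neuronal Kir3.2, had 4.69, 4.88 and 4.77 in the transgenic hearts and 4.96, 4.98 and 5.09 in the control hearts, a value of -0.23 (limma adjusted p = 0.1564). Kcnj16, Kcnj9 and Kcnj1 had -0.09 (0.5574), -0.12 (0.6412) and -0.09 (0.7885). The probe signals of the 8 ran from the 20.4 (Kcnj1) to the 52.1 percentile (Kcnj14), and whether low signal hid a change was not tested. Kcnj13 was not analysed here.

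Of 13 two-pore channel genes other than Kcnk3, which leak potassium at rest, 0 passed the test and 2 had an unadjusted p under 0.05 in the limma fit. All 13 had values below 0, from -0.41 to -0.02 (median -0.14), beside a median of -0.03 over all genes. The share of all genes below 0 was not computed, so the shared sign is a description. The probe signals of the 13 ran from the 26.9 (Kcnk9) to the 64.8 percentile (Kcnk6). Several, such as Kcnk9, Kcnk12 and Kcnk16, lay in the range of the lung markers (14.0 to 45.0). Whether low signal hid a change was not tested. Kcnk6 had 6.59, 6.78 and 6.86 in the transgenic hearts and 7.35, 7.17 and 6.93 in the control hearts. Its groups did not overlap, with a log2 fold change of -0.41 (limma adjusted p = 0.07437), and it passed the test without control replicate 3 (0.0278). Kcnk6 also passed with array weights (0.0239) and after a second quantile normalization (0.0338), within a range of 0.0239 to 0.226 over its alternatives. Kcnk16, Kcnk9 and Kcnk12 had -0.35 (0.1283), -0.18 (0.2467) and -0.24 (0.2529).

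**Figure D5:**
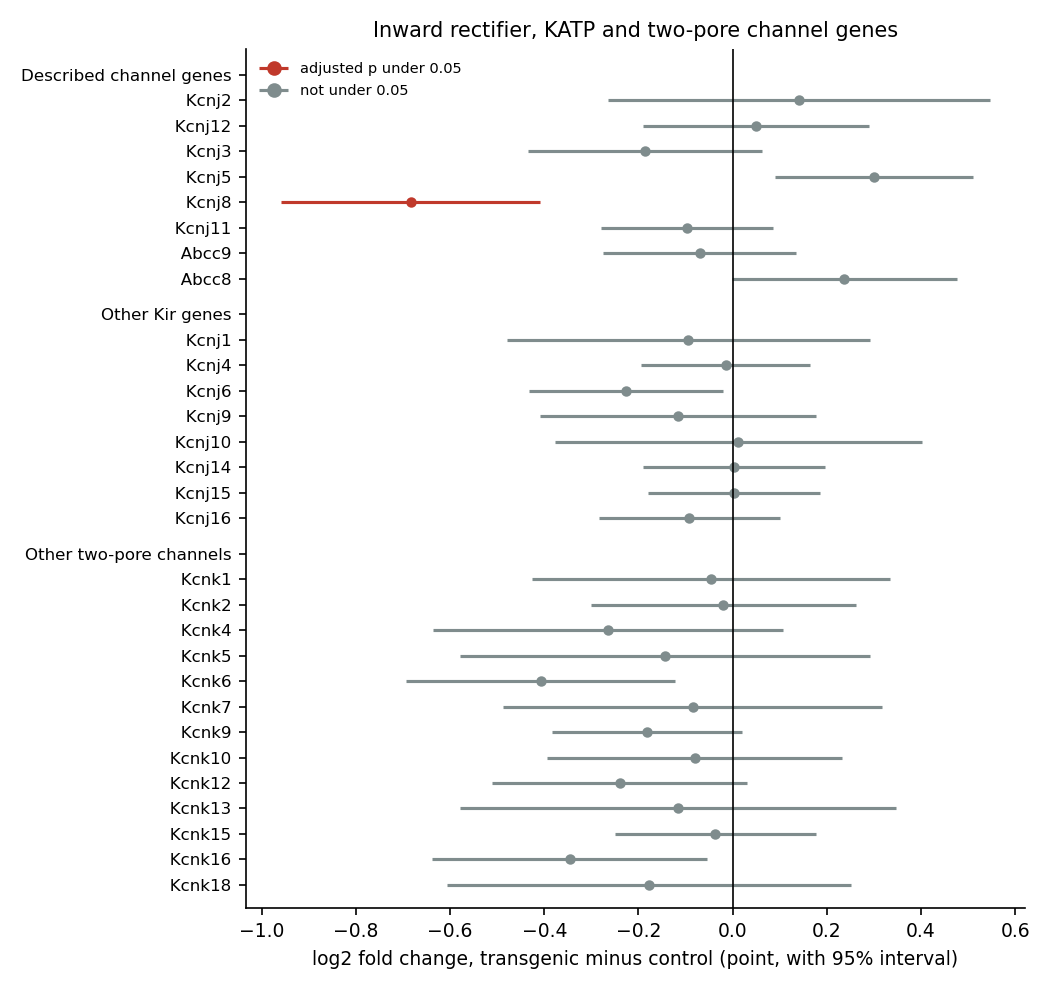
Log2 fold changes, transgenic minus control, of the 8 channel genes, the other Kir genes and the other two-pore channels (horizontal axis), with 95% intervals from limma; red marks an adjusted p under 0.05. Kcnj8 is the called gene, and the 13 two-pore channels lie between -0.41 and -0.02.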

How the data were processed

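The authors deposited a table of log2 values with a column for each array. The tools oligo, limma and RMA are listed, with no version, per the submitters' processing notes. The RNA was primed with poly(T), amplified and biotin-labelled, per the labels' protocols. The table held 41345 probes, of which 23521 had 1 gene symbol in the platform's annotation, 1814 several and 16010 none. Probes with 1 symbol gave 22180 genes, by the brightest probe for 1082 genes with several. RefSeq gene order and sequences are from GRCm38.p6. Array medians lay between 5.45 and 5.54, arrays correlated at 0.982 to 0.989 within groups and 0.974 to 0.983 between them, and no 2 arrays held identical values.

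The test of transgenic minus control hearts was that of limma 3.58.1 (R 4.3.3; lmFit and eBayes without covariates or a filter), with Benjamini-Hochberg adjustment over all genes and a threshold of 0.05. Partner subunits were compared by exact permutation tests. Genes named besides the 8 channel genes are those called in 5 pathway lists, or else up to 4 by smallest p, up to 3 by smallest p in each of 12 marker lists, and the 3 nearest profiles; Rgs6, Ckm and the genes beside the KATP genes were named after their values were seen. The channel genes and lists were chosen with earlier results of these data known. Summed signals are the log2 of the summed unlogged values of a list. On simulated data for this comparison over 22180 genes, the fit found 0% of genes set to a 1.25-fold change, 46% of those at 1.5-fold and 88% of those at 2-fold. There only 50 genes were changed at each size, whereas 2465 genes were called in the data. The adjustment is stricter when few genes change, so these shares do not give the power in the data. In the data Dlg1 was called at a 1.25-fold change. Alternatives were leaving out the third of genes lowest in signal, the mean of a gene's probes, every probe, renewed quantile normalization, centred arrays, an intensity trend with robust variances, a block for the replicate number, array weights and each array left out in turn.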

Additional observations from a re-analysis of the deposited data

How the results depend on the processing

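Kcnj8 kept its direction and its call in all 13 alternatives, with log2 fold changes from -0.77 to -0.59 and adjusted p-values from 0.00143 to 0.0383. Without any 1 array, 1 of the 8 channel genes was called. Without the third of genes lowest in signal, or with an intensity trend and robust variances, 2 were called. The added gene was Kcnj5, at an unchanged log2 fold change of 0.30. In the first case fewer genes were tested and the variances were fitted anew. The cause was not tested in either case. Kcnj11, Abcc8 and Abcc9 kept their direction and stayed uncalled in every alternative. Small uncalled values changed sign. Kcnj12 had -0.031 with renewed quantile normalization and -0.010 to 0.14 without 1 array, and Kcnj2 had -0.027 to 0.29 without 1 array. Kcnj3 had 0.080 with the mean of its probes and 0.35 on its dimmer probe, whose values run the other way and lie below the array medians. Kcnj1 had 0.030 with array weights, and without 1 array it had -0.23 to 0.11. Ckm had 0.0072 with renewed quantile normalization and -0.047 to 0.013 without 1 array. Without 1 array, Adipoq had -0.10 to 0.14, Sftpb -0.25 to 0.018, Sftpc -0.042 to 0.19 and Kcnj2 minus Kcnj12 -0.060 to 0.27. The other partner differences kept their direction in the alternatives tried for them. Those were the mean of a gene's probes, renewed quantile normalization, centred arrays and each array left out. The dimmer Kcnj3 probe on its own was not tried there. Over all genes 1171 to 2249 were called without 1 array, against 2465 with all 6. The count moved by over 1.5 times without transgenic replicate 1 (1217), 2 (1171) or 3 (1553) or control replicate 1 (1378).

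Same-numbered arrays of the groups did not deviate together (correlations of 0.0163, -0.13 and 0.0138). Arrays of different numbers had correlations from -0.111 to 0.108. The numbers thus gave no sign of a pairing, which 3 arrays per group cannot exclude. With the replicate number as a block, 1996 genes were called, and Kcnj8 stayed called (adjusted p = 0.0176). In that block fit Chrm2 (0.0531), Gnb5 (0.0519) and Dlg1 (0.0786) were not called. With 6 arrays and no detection calls used here, small changes in these genes could be missed, and how often was not measured.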
